A study of Mus musculus with 16 samples.

Results

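The effect of beta-sitosterol that hippocampi taken 1 h and 6 h after the injection had in common was measured in 16 libraries, which are all of the 16 in the series. They were chosen by their labels alone: 8 mice that received beta-sitosterol and 8 that received vehicle, with each time kept as its own block. All mice were wild-type C57BL/6. The groups were beta-sitosterol 1 h (100 mg/kg, intraperitoneal, mice 6 to 9), vehicle 1 h (mice 2 to 5), beta-sitosterol 6 h (100 mg/kg, mice 17 to 20) and vehicle 6 h (mice 11 to 14), with 4 mice in each. Total RNA of dissected hippocampi was sequenced after TruSeq mRNA preparation, so a change in the number of cells of a type and a change in RNA per cell cannot be told apart. The sources used here give neither age, sex nor what the vehicle was made of, and a single dose was used. The 1 h and 6 h comparisons share no mouse, so that a gene which moves the same way at both has done so in separate sets of animals.

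Beta-sitosterol is a plant sterol that differs from cholesterol by an ethyl group on the side chain. Cells answer a rise in sterols through a pair of sensors: SREBP transcription factors, held inactive by sterols, which drive cholesterol synthesis and uptake, and liver X receptors, activated by oxidized sterols, which drive sterol export through Abca1 and Apoe. In the brain, astrocytes make most of the cholesterol and Apoe that neurons receive. The comparison asks which transcripts of the hippocampus differed between the arms at both times.

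Libraries held 24815581 to 31266644 counted reads, and 17055 genes passed the filter on low counts. Hippocampal markers were present in every library, with Prox1, the transcription factor of dentate granule cells, at 99.4 to 197 CPM (read counts scaled to one common library size by TMM) and Wfs1, a marker of CA1 pyramidal cells, at 112 to 195 CPM. Choroid plexus transcripts varied widely within groups. Their defining gene Ttr ranged from 1034 to 2165 CPM in the beta-sitosterol 1 h mice, 45.8 to 6136 CPM in the vehicle 1 h mice, 58.7 to 3801 CPM in the beta-sitosterol 6 h mice and 46.8 to 3122 CPM in the vehicle 6 h mice, and 4 libraries lay under 100 CPM.

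Averaged over both times, 13 of 17055 genes (0.0762%) had a Benjamini-Hochberg adjusted p under 0.05 by quasi-likelihood in edgeR. Of these, 12 were lower in beta-sitosterol mice (0.0704% of genes tested) and 1, Usp15, was higher (0.00586%). The changes were small: the 12 lower genes had a median fold of 1.17, and the change of largest size was that of Slc8b1, 1.31-fold. At each time, treated and vehicle mice were completely separate for 12 of the 13, and the exception was Slc25a18. Over all genes 0.838% were separate at both times as higher and 0.252% as lower. The 13 were picked by their p in these same mice, so their separation is no further support. No gene passed at 1 h or at 6 h alone (smallest adjusted p = 0.251 and 0.321), where 1742 and 2070 genes had an unadjusted p under 0.05, so the 13 calls rest on pooling the 2 times.

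The RefSeq promoter windows (250 bases before to 50 after the start, GRCm38.p6) of 4 of the 13 genes are shown: Itih3 and Plxnb1 had the smallest adjusted p, Usp15 was the gene that rose, and Itih3 and Slc25a18 held the sterol regulatory element letters, the rarest of the motifs searched. Capitals mark the sterol regulatory element letters TCACNCCAC, bound by SREBP, and the GC box GGGCGG, bound by Sp1, on either strand. The windows lie at chr14:30923538-30923837 on the minus strand, chr6:120773518-120773817 on the plus strand, chr9:109095186-109095485 on the plus strand and chr10:123196970-123197269 on the minus strand.
Itih3: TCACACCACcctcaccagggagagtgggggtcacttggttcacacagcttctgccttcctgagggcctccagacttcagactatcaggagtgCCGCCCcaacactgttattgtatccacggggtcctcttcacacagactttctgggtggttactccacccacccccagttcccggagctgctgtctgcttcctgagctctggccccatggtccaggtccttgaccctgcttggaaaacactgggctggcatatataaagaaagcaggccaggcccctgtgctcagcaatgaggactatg
Slc25a18: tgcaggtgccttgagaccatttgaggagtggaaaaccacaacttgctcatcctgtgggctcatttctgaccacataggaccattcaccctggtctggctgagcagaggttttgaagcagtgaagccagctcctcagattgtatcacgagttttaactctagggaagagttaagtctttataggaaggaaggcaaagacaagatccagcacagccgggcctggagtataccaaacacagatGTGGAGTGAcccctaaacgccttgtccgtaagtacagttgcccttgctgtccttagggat
Plxnb1: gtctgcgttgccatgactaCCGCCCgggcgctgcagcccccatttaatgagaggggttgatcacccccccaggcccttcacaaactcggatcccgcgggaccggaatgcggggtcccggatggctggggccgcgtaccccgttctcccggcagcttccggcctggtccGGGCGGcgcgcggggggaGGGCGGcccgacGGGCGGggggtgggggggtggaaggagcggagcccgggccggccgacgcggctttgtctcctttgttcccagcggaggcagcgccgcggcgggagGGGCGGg
Usp15: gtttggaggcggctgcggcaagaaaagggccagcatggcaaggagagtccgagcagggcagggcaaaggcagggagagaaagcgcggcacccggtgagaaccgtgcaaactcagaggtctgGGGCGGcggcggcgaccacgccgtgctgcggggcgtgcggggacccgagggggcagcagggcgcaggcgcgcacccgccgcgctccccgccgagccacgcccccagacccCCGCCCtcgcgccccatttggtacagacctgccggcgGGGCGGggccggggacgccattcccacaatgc
Windows were matched for 10 of the 13 called genes. The letters TCACNCCAC occurred in 2 of these 10, those of Itih3 and Slc25a18, and in 131 of 12367 windows of tested genes (1.06%). GGGCGG occurred in 8 of 10, against 61.5% of all windows, AGGTCA, the repeat unit of liver X receptor sites, in 2 of 10 (Pitpnm1 and Plcb3), against 12.2%, the E-box CACGTG in 0 of 10, against 9.66%, and CCAAT in 0 of 10, against 38.1%. No motif contains the letters of another, and a match is a run of letters, not a bound site. A gene here has 1 window, the first listed where there were several, and the median GC content of the windows was 64.3% for the called genes and 60.7% for all.

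Secreted and surface proteins made up one set of the lower genes. Itih3 codes for 1 of the heavy chains that inter-alpha-trypsin inhibitor hands on to hyaluronan in the extracellular matrix (chromosome 14, 30908572 to 30923760, GRCm38). Itih3 had 21.6, 20.8, 19.5 and 20.4 CPM in beta-sitosterol mice at 1 h, against 24.4, 30.7, 27.5 and 24.8 CPM in vehicle mice, and 19.5, 21.5, 22 and 19.3 CPM in beta-sitosterol mice at 6 h, against 26.0, 25.0, 24.3 and 24.7 CPM in vehicle mice. The groups did not overlap at either time (log2 fold change -0.33, SE 0.0492, edgeR adjusted p = 0.0229). Plxnb1, a receptor for semaphorin 4D that acts on the cytoskeleton (chromosome 9, 109095389 to 109119917), was lower as well. Plxnb1 had 152, 152, 149.8 and 131 CPM in beta-sitosterol mice at 1 h, against 173, 180.2, 175 and 173 CPM in vehicle mice, and 140.2, 138, 143 and 126 CPM in beta-sitosterol mice at 6 h, against 176, 158, 158 and 164 CPM in vehicle mice. The groups did not overlap at either time, and beta-sitosterol mice 9 and 20 were the lowest of their groups (log2 fold change -0.26, SE 0.0394, edgeR adjusted p = 0.0229). Its effect was nearly the same at the 2 times, with a log2 fold change of -0.26 (SE 0.0556) at 1 h and -0.26 (SE 0.0557) at 6 h. Adgrg1, an adhesion receptor also called GPR56 (chromosome 8, 94974751 to 95014217), had 69.6 to 75.1 CPM in treated mice and 75.4 to 83.4 CPM in vehicle mice at 1 h, and 68.6 to 74.6 CPM in treated mice and 79.9 to 85.4 CPM in vehicle mice at 6 h (log2 fold change -0.19, SE 0.0325, edgeR adjusted p = 0.0300). The arms came closest at 1 h. Tril, an accessory protein of Toll-like receptors 3 and 4 that is made by astrocytes (chromosome 6, 53815468 to 53820830), had 46.8 to 49.5 CPM in treated mice and 53.0 to 58.7 CPM in vehicle mice at 1 h, and 40.2 to 45.8 CPM in treated mice and 47.2 to 52.6 CPM in vehicle mice at 6 h (log2 fold change -0.22, SE 0.0362, edgeR adjusted p = 0.0300).

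Mitochondrial carriers and lipid genes formed a second set. Slc8b1, the exchanger that releases calcium from mitochondria in return for sodium (chromosome 5, 120511168 to 120534024), is expressed at a low level. Slc8b1 had 5.57, 6.65, 6.54 and 6.54 CPM in beta-sitosterol mice at 1 h, against 8.47, 8.71, 8.26 and 7.34 CPM in vehicle mice, and 6.32, 5.64, 5.26 and 4.99 CPM in beta-sitosterol mice at 6 h, against 7.35, 7.67, 6.5 and 7.90 CPM in vehicle mice. Treated mice were lower without overlap at both times, with the narrowest gap at 6 h (log2 fold change -0.39, SE 0.0683, edgeR adjusted p = 0.0365). Slc25a18, a glutamate carrier of the inner mitochondrial membrane found in astrocytes (chromosome 6, 120773578 to 120794336), averaged 50.7 ± 3.85 CPM in beta-sitosterol mice and 62.9 ± 6.01 CPM in vehicle mice at 1 h (SD, n = 4 each). There treated mouse 9, at 56.1 CPM, lay above vehicle mouse 5, at 55.8 CPM, whereas at 6 h treated mice had 41.0 to 44.9 CPM and vehicle mice 47.2 to 55.7 CPM (log2 fold change -0.29, SE 0.0517, edgeR adjusted p = 0.0365). Fads2 codes for delta-6 desaturase, the first step in making long polyunsaturated fatty acids (chromosome 19, 10062765 to 10101746). Fads2 had 109, 115, 114 and 121 CPM in beta-sitosterol mice at 1 h, against 134, 142, 138 and 125 CPM in vehicle mice, and 104, 102, 93.4 and 99.6 CPM in beta-sitosterol mice at 6 h, against 124, 112, 109 and 118 CPM in vehicle mice. All 8 treated mice were lower than the 4 vehicle mice of their time (log2 fold change -0.22, SE 0.0378, edgeR adjusted p = 0.0300).

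The remaining lower genes act in phosphoinositide signalling, cell polarity and phosphatase control. Plcb3, a phospholipase C that is activated by G proteins (chromosome 19, 6952325 to 6976470), lay at 22.9 to 25.1 CPM in treated mice and 26.5 to 29.1 CPM in vehicle mice at 1 h, and at 20.6 to 22.3 CPM in treated mice and 23.8 to 27.3 CPM in vehicle mice at 6 h (log2 fold change -0.22, SE 0.0405, edgeR adjusted p = 0.0481). It had the largest adjusted p of the 13. Pitpnm1, a phosphatidylinositol transfer protein that returns this lipid to the plasma membrane (chromosome 19, 4099998 to 4113965), had 178 to 187 CPM in treated mice and 197 to 215 CPM in vehicle mice at 1 h, and 168 to 182 CPM in treated mice and 187 to 222 CPM in vehicle mice at 6 h (log2 fold change -0.21, SE 0.0357, edgeR adjusted p = 0.0300). The groups of both genes were apart at each time. Llgl1, a polarity protein of the Scribble group (chromosome 11, 60699723 to 60714186), had 68.9 to 73.9 CPM in treated mice and 75.8 to 83.9 CPM in vehicle mice at 1 h, and 65.2 to 68.7 CPM in treated mice and 73.4 to 78.0 CPM in vehicle mice at 6 h (log2 fold change -0.17, SE 0.0305, edgeR adjusted p = 0.0460). Caskin2, a scaffold with ankyrin repeats (chromosome 11, 115799183 to 115813639), had 25.1 to 29.0 CPM in treated mice and 30.9 to 35.1 CPM in vehicle mice at 1 h, and 23.2 to 27.3 CPM in treated mice and 30.6 to 33.7 CPM in vehicle mice at 6 h (log2 fold change -0.28, SE 0.0456, edgeR adjusted p = 0.0300). Llgl1 had the smallest fold of the 13, 1.12, and that of Caskin2 was 1.21. Ppp1r16a, a targeting subunit of protein phosphatase 1 at membranes (chromosome 15, 76671615 to 76694919), averaged 63.0 ± 1.97 CPM in beta-sitosterol mice against 70.6 ± 2.83 CPM in vehicle mice at 1 h, and 59.7 ± 1.40 CPM in beta-sitosterol mice against 69.2 ± 1.33 CPM in vehicle mice at 6 h (SD, n = 4 each, log2 fold change -0.19, SE 0.0295, edgeR adjusted p = 0.0265).

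The 1 gene that rose was Usp15, which removes ubiquitin from proteins such as those of TGF-beta signalling (chromosome 10, 123105006 to 123196995). Usp15 had 61.3, 63.8, 62.8 and 63.6 CPM in beta-sitosterol mice at 1 h, against 53.8, 52.5, 54.4 and 59.0 CPM in vehicle mice, and 63.2, 62.4, 66.4 and 66.6 CPM in beta-sitosterol mice at 6 h, against 56.3, 58.8, 59.3 and 58.3 CPM in vehicle mice. Every treated mouse was higher than every vehicle mouse of its time (log2 fold change 0.17, SE 0.0311, edgeR adjusted p = 0.0382). Reads of 7 of the 13 genes could include those of a gene on the opposite strand, since the strand setting of the counting is not given: Plxnb1, Caskin2, Tril, Slc25a18, Usp15, Llgl1 and Plcb3. Such an overlap was present for 5367 of all 17055 genes tested. Exons of Usp15 also overlapped those of another gene on its own strand.

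**Figure D1:**
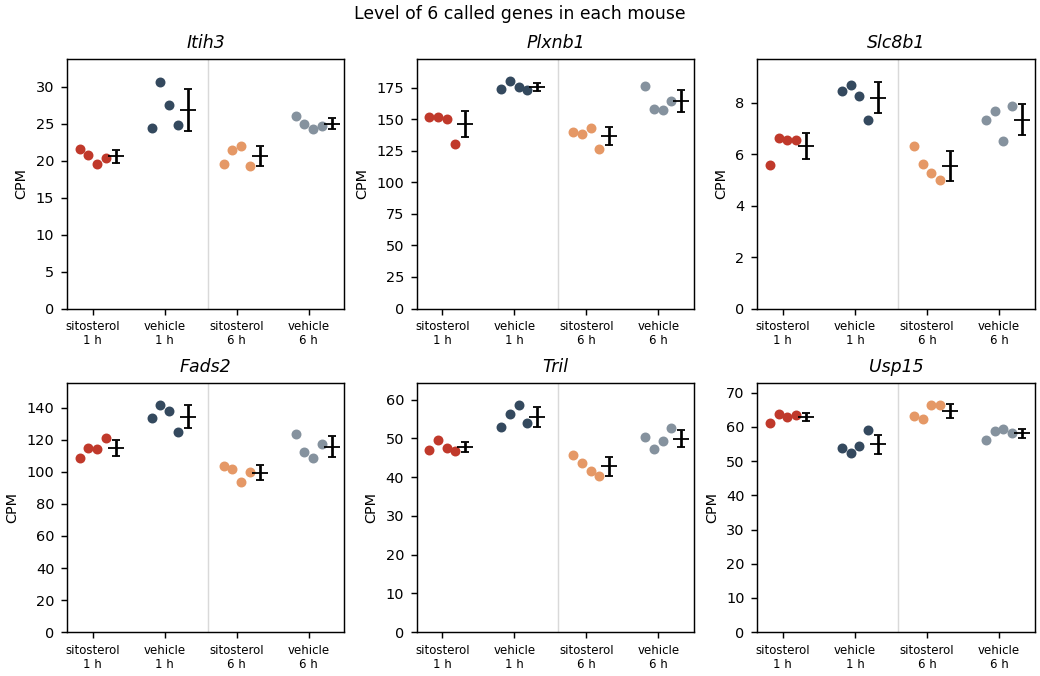
CPM in each mouse (points) for 5 lower genes and Usp15, with the mean and SD of each group as a bar beside the points (n = 4). In each panel the 4 beta-sitosterol points lie on one side of the 4 vehicle points at 1 h and at 6 h.

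The number of calls stood on a steep part of the distribution of p-values. An adjusted p under 0.055 was reached by 132 genes (79 higher, 53 lower), one under 0.06 by 222 and one under 0.1 by 1050. Scaling by DESeq2's size factors (RLE) in place of TMM gave 117 calls, 75 higher and 42 lower, which include the 13. More genes were higher than lower there, as was so with TMM under 0.055. The balance of directions among the 13 calls thus depended on the settings. At the same threshold and with TMM, more genes were higher than lower with a filter at a mean of 5 CPM (302 and 195). The same was so with an additive model of time and treatment (223 and 124) and without vehicle mouse 5 (816 and 390). More were lower with no filter on low counts (54, and 42 higher) and without beta-sitosterol mouse 17 (38, and 23 higher). Leaving out vehicle 1 h mouse 5, with the lowest Ttr, gave 1206 calls, and leaving out beta-sitosterol mouse 6, 17, 9 or vehicle mouse 12 gave 285, 61, 39 and 25. Leaving out beta-sitosterol mouse 7, 8 or 20 or vehicle mouse 4, 11 or 14 gave 0, vehicle mouse 3 gave 1, beta-sitosterol mouse 19 gave 2 and vehicle mouse 2 gave 5. Ttr was nearly as low in vehicle mouse 14 (46.8 CPM) as in mouse 5 (45.8 CPM). In beta-sitosterol mice 17 and 19 it was 58.7 and 67.1 CPM. Without the 4 libraries low in Ttr 0 genes passed, with 3 mice left in the vehicle groups, 4 in beta-sitosterol 1 h and 2 in beta-sitosterol 6 h. No log2 fold change of the 13 genes changed sign in any of the 27 alternatives run.

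The genes just outside the threshold were mostly higher in treated mice. Of the genes without overlap at both times, 143 were higher (0.838% of 17055) and 43 lower (0.252%), and 2 lay without overlap in opposite directions at the 2 times. The 10 higher ones with the smallest p over both times were Usp15 and 9 genes with an adjusted p of 0.0508 to 0.0526, which did not pass. Matr3, a nuclear matrix protein that binds RNA (log2 fold change 0.19), Hnrnph2, a splicing regulator (0.16), and Usp39, a component of the spliceosome (0.20), act on RNA. Usp14, a deubiquitinase of the proteasome (0.18), Cul3, a scaffold of ubiquitin ligases (0.13), and Tpp2, a peptidase that acts on peptides the proteasome releases (0.20), act in protein turnover. Ipo7, an importin (0.16), Kifap3, the adaptor of the kinesin-2 motor (0.19), and Pls3, an actin-bundling protein (0.21), act in transport or on the cytoskeleton.

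Their values in single mice show the size of such an effect. Cul3 had 156, 156, 159 and 164 CPM in beta-sitosterol mice at 1 h, against 147, 144, 147 and 146 CPM in vehicle mice, a difference of 1.10-fold over both times (SE 0.0276 on the log2 scale). Matr3 had 433, 432, 437 and 454 CPM in beta-sitosterol mice at 6 h, against 361, 408, 400.4 and 377 CPM in vehicle mice. In both genes the arms were separate, and vehicle 6 h mouse 11 was the lowest of its group. Without mouse 11, 194 genes in place of 186 lay without overlap at both times. That count was 482 without vehicle mouse 5, 360 without beta-sitosterol mouse 6, 310 without beta-sitosterol mouse 17 and 308 without beta-sitosterol mouse 9, where fewer mice must lie apart.

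Most genes had an effect of one sign at the 2 times. The log2 fold changes at 1 h and 6 h had a Pearson r of 0.307 and a Spearman rho of 0.453 across 17055 genes, which are not independent replicates and share one scaling. Of all genes 70.5% had one sign at both times, 5571 higher and 6453 lower. Averaged over both times, 7854 genes were positive and 9201 negative. Among 629 genes with an unadjusted p under 0.05 at each time, 620 had one sign (98.6% of the 629 and 3.64% of all genes), 439 higher and 181 lower, and 9 had opposite signs. The shares of such genes at 1 h and at 6 h, taken as independent, would place 211 genes under 0.05 at both. At an unadjusted p under 0.01 at each time there were 86 genes, all of one sign, and at 0.001 there were 6, all lower. Requiring a change at both times in a single test, by the larger of the 2 edgeR p-values with Benjamini-Hochberg adjustment, called 0 genes (smallest adjusted p = 1), and DESeq2 and limma called 0 as well. The difference between the effects at 6 h and 1 h was called for 0 genes (edgeR, smallest adjusted p = 1.00), with 327 genes under an unadjusted p of 0.05, and for 0 by DESeq2 and limma.

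The 620 genes of one sign became 985 without vehicle mouse 5, 341 without vehicle mouse 3 and 339 without vehicle mouse 11. They were 249 with the mitochondrial percent of reads as a covariate, 107 higher and 142 lower, and 160 with the astrocyte score, 64 higher and 96 lower.

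**Figure D2:**
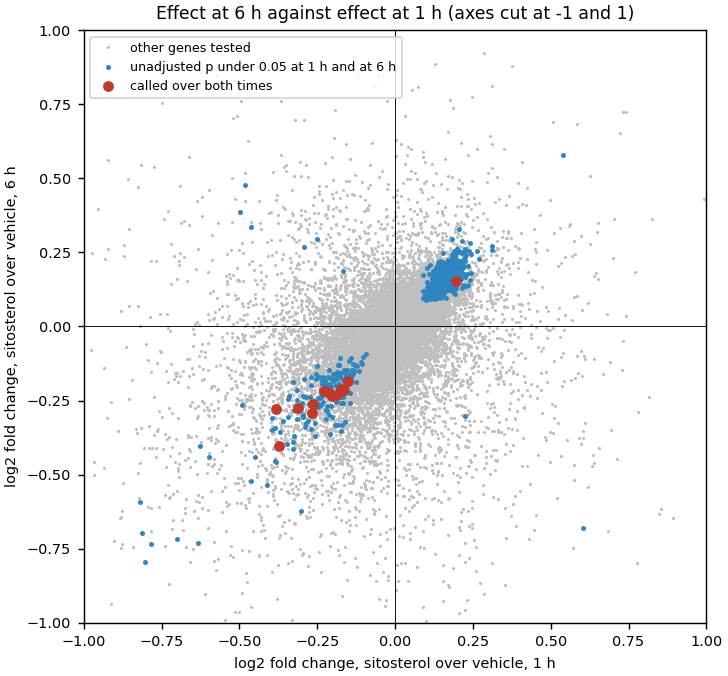
Log2 fold change of beta-sitosterol over vehicle at 6 h (vertical) against 1 h (horizontal), 1 point per gene, with 63 genes outside the axes. Most of the 629 genes with an unadjusted p under 0.05 at each time (blue) and all 13 called genes (red) lie in the lower left and upper right corners of the plot, where both effects have one sign.

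No member of the sterol sensor pathways passed over all genes. The list that joins liver X receptors with sterol transport genes had more negative effects than positive ones. Among its 22 genes, 17 had a negative log2 fold change, against 9201 of all 17055 genes (median -0.094, against -0.013 over all genes tested). Of the 17, 7 had an unadjusted p under 0.05, against 8.96% of all genes that were lower at that level. Negative at both times were 6453 of all genes and 13 of the list. The median was -0.064 with the mitochondrial percent and -0.045 with the astrocyte score as covariate. Apoe had 1164, 1128, 1095 and 1193 CPM in beta-sitosterol mice at 1 h, against 1217, 1439, 1367 and 1254 CPM in vehicle mice, and 1109, 1103, 970.5 and 982 CPM in beta-sitosterol mice at 6 h, against 1241, 1218, 1229 and 1327 CPM in vehicle mice. Apoe, the main lipid carrier of the brain (chromosome 7, 19696109 to 19699188), was the 1 member whose groups did not overlap at either time (log2 fold change -0.24, SE 0.0464, edgeR adjusted p = 0.0526). Abca7, a lipid transporter, had -0.26 (SE 0.0554), Srebf1, which codes for the SREBP that drives fatty acid synthesis and is a liver X receptor target, -0.24 (SE 0.0533), and Nr1h2, liver X receptor beta, -0.16 (SE 0.0398), as log2 fold changes over both times. Abca1, the classical target of that receptor, had -0.13 (SE 0.0515, edgeR adjusted p = 0.175), and Cyp46a1, the neuronal enzyme that makes 24-hydroxycholesterol, 0.0074 (SE 0.0420, edgeR adjusted p = 0.936). The other positive members of the list were Scarb1 (0.074), Osbp (0.065), Abcg1 (0.049) and Abcg4 (0.044). Single members went different ways with the mitochondrial percent and the astrocyte score as covariates, given in that order. Srebf1 had -0.24 and -0.32, Abca7 -0.26 and -0.30 and Abca1 -0.15 and -0.21. Apoe (-0.18 and -0.16) and Nr1h2 (-0.14 and -0.12) had smaller effects with each.

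On the side of cholesterol synthesis and uptake, 18 of 25 genes were negative over both times, against 9201 of all 17055 genes. Their median was -0.022, and that over all genes was -0.013. An unadjusted p under 0.05 was reached by 5, all negative, against 8.96% of all genes that were lower at that level. Of the 25, 12 had opposite signs at the 2 times, against 5031 of all 17055 genes. Insig1, which retains SREBP when sterols are high, had a log2 fold change of -0.14 (SE 0.0563, edgeR adjusted p = 0.183), Lss, lanosterol synthase, -0.15 (SE 0.0528), and Mvd, a decarboxylase of the mevalonate pathway, -0.15 (SE 0.0568). The list median was positive with the mitochondrial percent (0.025) or the astrocyte score (0.028) as covariate, where Insig1 had -0.0077 and -0.025 and Lss -0.074 and -0.063 in that order.

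Negative at both times were 6453 of all 17055 genes and 14 of 18 genes of fatty acid synthesis, desaturation and elongation. The median of this list was -0.079, and -0.042 with the mitochondrial percent as covariate. Besides the called Fads2, the 14 included Fads1, the delta-5 desaturase (-0.13, SE 0.0366), and Scd1, a stearoyl-CoA desaturase (-0.24, SE 0.0738), whereas Elovl4, an elongase of very long chains, was positive (0.14, SE 0.0425). Relatives of the other called genes had effects in both directions. Plxnd1 had -0.24 and Plxnb3 -0.20, as Plxnb1 was lower, while the coreceptor gene Nrp1 had 0.15, and the plexin list as a whole had 5 negative and 6 positive members. Plcb2 had -0.37 and did not overlap between arms at either time, and Plcb1, the isoform abundant in hippocampal neurons, had 0.19. Mcu, the uniporter that brings calcium into mitochondria, had 0.19 without overlap at either time, opposite in sign to the exchanger Slc8b1. Scrib, a partner of Llgl1, had -0.21, Bcan, a proteoglycan of the hyaluronan matrix, -0.19, and Itih2, another heavy chain, 0.33. None of these passed by the edgeR test. With the mitochondrial percent as covariate the effect was -0.051 for Fads1, -0.10 for Scd1, 0.048 for Nrp1, 0.066 for Plcb1, 0.10 for Mcu and 0.17 for Itih2. For Plcb2 it was -0.29. The effect was no smaller with this covariate for Plxnd1 (-0.27), Plxnb3 (-0.23), Scrib (-0.22), Bcan (-0.23) and Elovl4 (0.14). The median of the plexin list was -0.080 with it, against 0.053 without it.

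Lists with positive medians included those of neurons, nuclear import and deubiquitination. All 10 deubiquitinases of the Usp15 list had a positive log2 fold change at both times (median 0.10), against 5571 of all 17055 genes. An unadjusted p under 0.05 was reached by 6 of them, against 11.5% of all genes that were higher at that level. The median was 0.028 with the mitochondrial percent and 0.029 with the astrocyte score as covariate. Usp47 had 0.13 (SE 0.0332) and Usp11, a paralog of Usp15, 0.11 (SE 0.0382). With these covariates Usp47 had 0.077 and 0.057 and Usp11 0.032 and 0.022 in that order. Of 16 importins, 14 were positive over both times, against 7854 of all 17055 genes. The importin median was 0.10, and it was 0.072 with the mitochondrial percent and 0.068 with the astrocyte score as covariate. An unadjusted p under 0.05 was reached by 10 importins, among them Kpna1 (0.13), Kpna4 (0.14) and Ipo11 (0.12). Of 21 genes of GABA signalling, 16 were positive (median 0.10) and 12 reached it, with Gabra2, a subunit of the GABA-A receptor (0.15), Gphn, its anchor (0.16), and Gad1, a GABA-synthesizing enzyme (0.16). The 1 negative member at that level was Slc6a11, the GABA transporter of astrocytes (-0.22, SE 0.0461). The median of the GABA list was 0.052 with the mitochondrial percent and 0.066 with the astrocyte score, and Gad1 had 0.052 and 0.039, Gphn 0.074 and 0.12 and Slc6a11 -0.14 and -0.10 with the same 2 covariates. Of 21 glutamate receptor genes, 14 were positive (median 0.095), with Gria3 at 0.16, Gria1 at 0.16 and Grm5 at 0.14, and the astrocytic Grm3 at -0.15. That median was 0.0069 with the mitochondrial percent and 0.016 with the astrocyte score, where Gria3 had 0.081 and 0.10, Gria1 0.048 and 0.082 and Grm5 0.055 and 0.056. No member of these lists other than Usp15 passed over all genes.

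Among 26 genes induced by neuronal activity, 16 had opposite signs at 1 h and 6 h, against 5031 of all 17055 genes, and the medians were -0.15 at 1 h and 0.046 at 6 h. Their median over both times, -0.092, became -0.00064 once the 4 libraries low in Ttr were left out. Arc, a postsynaptic regulator of AMPA receptors, had a log2 fold change of -0.85 (SE 0.190) at 1 h and 0.07 (SE 0.190) at 6 h, so that its average of -0.39 (edgeR adjusted p = 0.127) lies between them. Fos, a subunit of AP-1, had -0.76 at 1 h and 0.041 at 6 h, and Dusp1, a phosphatase of MAP kinases, -0.61 and -0.085. The difference between times did not pass for any of the 3 (edgeR adjusted p = 1.00 for Arc, unadjusted p = 0.00414). Homer1, a postsynaptic scaffold, and Bdnf, a neurotrophin, had one sign, with 0.17 and 0.17 over both times, and Bdnf had 0.07 with the mitochondrial percent as covariate. Among 16 glucocorticoid-induced genes 12 were positive, against 7854 of all 17055 genes. Fkbp5, a cochaperone of the glucocorticoid receptor, had 0.32 (SE 0.108), and the list median was 0.14. Without beta-sitosterol 6 h mouse 19 that median was 0.039, and Fkbp5 had 0.17 with the mitochondrial percent as covariate.

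**Figure D3:**
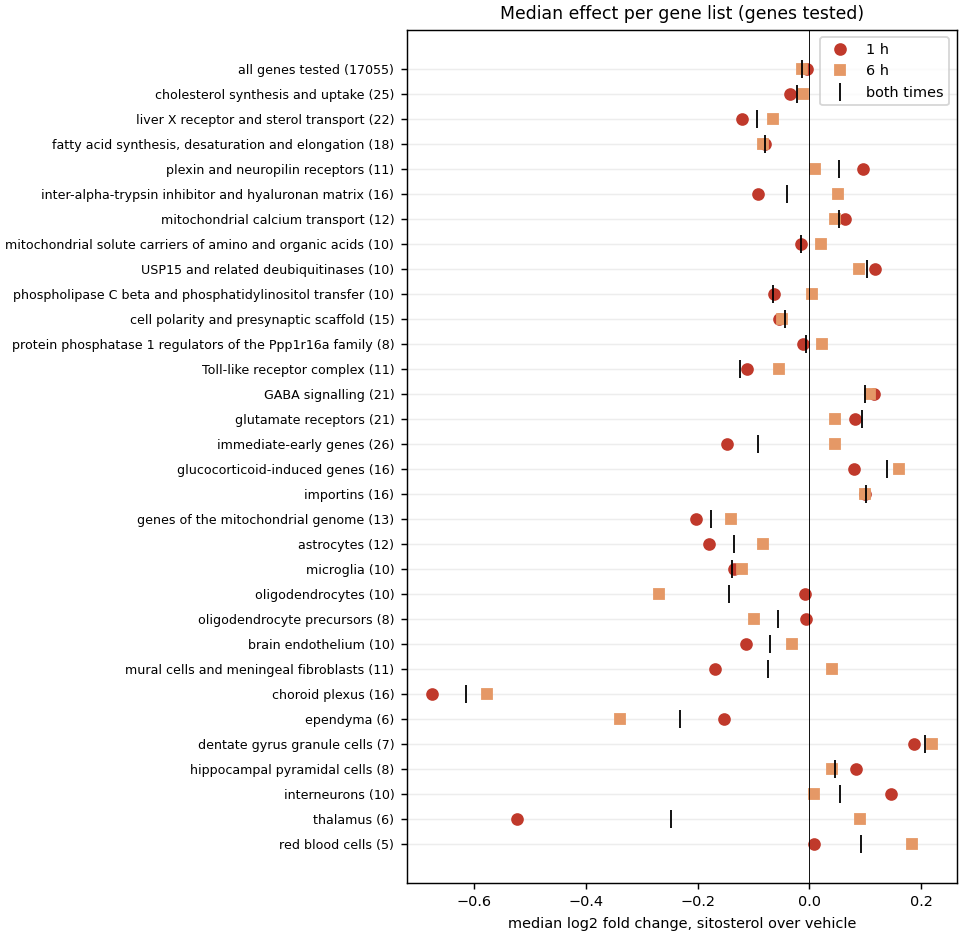
Median log2 fold change of beta-sitosterol over vehicle for all genes tested and for each of 31 gene lists, at 1 h, at 6 h and over both times, with the number of genes tested in brackets. Astrocyte, microglia, mitochondrial genome and choroid plexus lists lie below 0 at both times, GABA, importin and Usp15 lists above 0 at both, and immediate-early and thalamus lists on different sides.

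Markers of glia and transcripts of the mitochondrial genome also had lower levels in treated mice, and their part in the effects above was not tested beyond the covariate values given here. Of 12 astrocyte markers, 11 were negative at both times (median -0.14), against 6453 of all 17055 genes. Lower at an unadjusted p under 0.05 over both times were 8.96% of all genes and 11 of the 12 markers. Their summed level was 6056 to 6530 CPM in the beta-sitosterol 1 h mice, 6624 to 7605 CPM in the vehicle 1 h mice, 5608 to 6380 CPM in the beta-sitosterol 6 h mice and 6070 to 6787 CPM in the vehicle 6 h mice. The arms did not overlap in that sum at 1 h and overlapped at 6 h. All 10 microglia markers were negative at both times (median -0.14), with sums of 417 to 463 CPM in beta-sitosterol and 446 to 514 CPM in vehicle mice at 1 h, and 359 to 415 CPM in beta-sitosterol and 402 to 449 CPM in vehicle mice at 6 h. All 16 choroid plexus markers were negative at both times (median -0.61), none at an unadjusted p under 0.05. Their mean log-CPM, however, was 5.04 in beta-sitosterol and 4.99 in vehicle mice at 1 h, and 3.78 and 4.70 at 6 h. The direction at 1 h thus depended on the scale. Their sums were 1918 to 4086 CPM in beta-sitosterol and 350 to 10252 CPM in vehicle mice at 1 h, and 390 to 6917 CPM in beta-sitosterol and 361 to 5650 CPM in vehicle mice at 6 h, and no marker of these 3 lists was at 0 in any library. Oligodendrocyte markers had a median of -0.0075 at 1 h and -0.27 at 6 h, and thalamus markers one of -0.52 at 1 h and 0.091 at 6 h. Dentate granule cell markers were positive in 7 of 7 genes on average over both times (median 0.21), and in 5 at each time. That median of 0.21 was -0.053 with the mitochondrial percent and -0.031 with the astrocyte score as covariate. Hippocampal pyramidal cell markers were positive in 6 of 8 genes on average (median 0.046), and in 4 at each time.

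Reads counted for the 13 protein-coding mitochondrial genes made up 3.97% to 4.87% of the library in beta-sitosterol 1 h mice, 4.57% to 6.04% in vehicle 1 h mice, 3.75% to 4.12% in beta-sitosterol 6 h mice and 3.89% to 5.12% in vehicle 6 h mice. The share was lower by 0.758 percentage points at 1 h and by 0.487 at 6 h, with an average difference of -0.623 (two-sided exact permutation within times, 4900 arrangements, p = 0.0106, and 0.0318 after Benjamini-Hochberg adjustment over 3 such library measures). The counts fell unevenly on the 13 genes: mt-Co1 had 10570 to 16940 CPM, while mt-Co2 and mt-Co3 had at most 0.691 and 1.02 CPM, mt-Nd3 at most 6.59 and mt-Atp6 at most 10.1, so the share is that of the reads counted and not of all mitochondrial transcripts. Each time alone did not pass (exact p = 0.0857 and 0.114). The groups overlapped at both times. The other 2 measures were the slopes of log-CPM on transcript GC content and on log2 transcript length, which differed between beta-sitosterol and vehicle by -0.00384 log2 units per percentage point of GC and by 0.0222 log2 units per doubling of length (exact permutation p = 0.0490 and 0.0551, each 0.0551 adjusted).

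**Figure D4:**
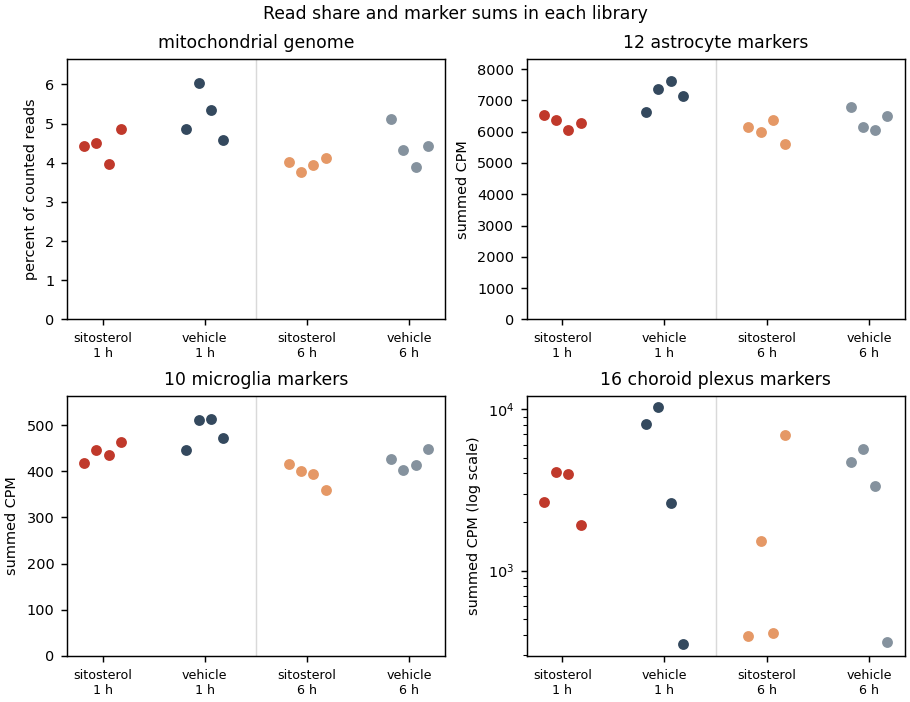
Percent of counted reads from 13 mitochondrial genes and summed CPM of astrocyte, microglia and choroid plexus markers (log scale for the last) in each of the 16 libraries. Treated mice lie lower on average in the first 3 panels, with overlap in most, and choroid plexus sums spread widely within 3 of the 4 groups.

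With the mitochondrial percent or the astrocyte score as a covariate, 0 genes were called over both times. The effects of the 13 called genes kept their signs, and all were smaller with each covariate except that of Adgrg1 with the astrocyte score. Itih3 had -0.24 with the mitochondrial percent and -0.20 with the astrocyte score, against -0.33 without either, and Slc25a18 -0.17 and -0.18, against -0.29. Fads2 had -0.15 and -0.17, against -0.22, and Adgrg1 -0.19 and -0.21, against -0.19. Usp15 had 0.14 and 0.15, against 0.17.

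Direction also went with the base composition of the transcripts. The 12 lower genes had a GC content of 51.5% to 60.6% in their longest transcript (median 56.9%), Usp15 had 42.3%, and the median over 16975 genes with a transcript was 49.4%. Among the 620 genes of one sign at both times the medians were 45.0% for the higher and 55.5% for the lower. Over all genes the median log2 fold change at 1 h was 0.013 in the bin of least GC, out of 10, and -0.036 in the bin of most GC, and at 6 h it was 0.016 and -0.093. After a correction of each library for transcript GC content and length, 0 genes were called by limma and 699 had an unadjusted p under 0.05 and one sign at both times, 619 higher and 80 lower. The corrected log2 fold changes were -0.31 for Itih3, -0.21 for Plxnb1, -0.32 for Slc8b1 and 0.16 for Usp15, against -0.33, -0.26, -0.39 and 0.17 before it. Among the called genes they were smaller by more than 1.5 times for Ppp1r16a (-0.11 against -0.19) and Llgl1 (-0.10 against -0.17). The same held for Apoe (-0.14 against -0.24), Nr1h2 (-0.069 against -0.16), Mvd (-0.061 against -0.15) and Bcan (-0.12 against -0.19), which were not called.

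**Figure D5:**
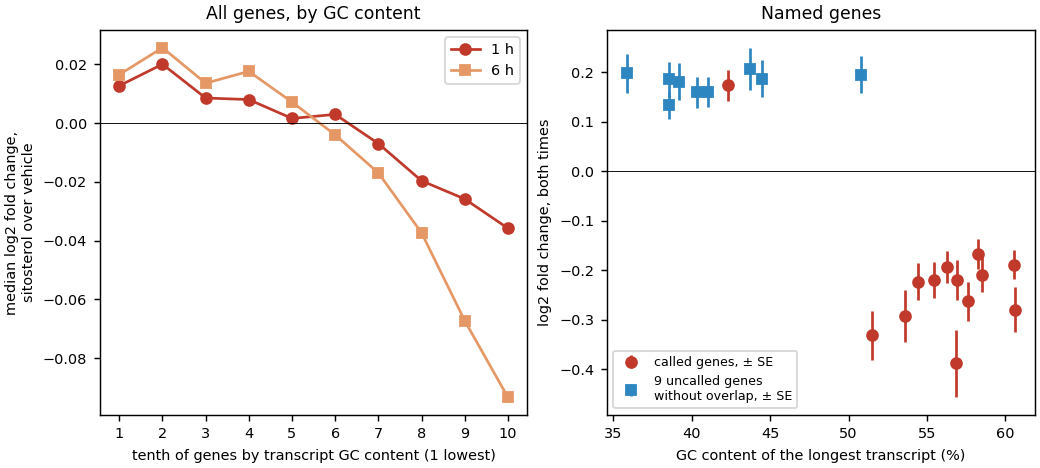
Left, median log2 fold change of beta-sitosterol over vehicle in 10 equal bins of 16975 genes ordered by GC content of the longest transcript, at 1 h and 6 h. Right, log2 fold change over both times with its SE against transcript GC content for the 13 called genes and for the 9 uncalled genes without overlap, where the higher genes lie at lower GC than the lower genes.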

How the data were processed

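Hippocampal RNA of 16 mice was counted per gene. The raw counts are whole numbers of reads per Ensembl gene, which the authors deposited unscaled. The submitters' processing notes name the build GRCm38, HTSeq 0.6.1p1, TopHat2 2.0.10, DESeq2 1.6.3, CASAVA 1.8.2 and cutadapt, with no step tied to a tool. No source used here gives the strand setting or the annotation release. In the other table, the deposited signal is the same counts times 1 factor per library, between 0.853 and 1.11.

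Genes were filtered with filterByExpr (minimum count 10, minimum total 15), which kept 17055 of 46603 IDs with 99.9% of the reads. edgeR 4.0.16 in R 4.3.3 fitted a mean per group to all 16 libraries (TMM, robust quasi-likelihood, 12 residual degrees of freedom), and 1 contrast averaged the effects at 1 h and 6 h. Calls were made under 0.05 after Benjamini-Hochberg adjustment across every gene tested. Each SE was obtained as the log2 fold change over the root of F. P-values measure the spread between mice. The common biological coefficient of variation was 0.0988, and counting error adds to it mainly in genes with few reads. The scripts were tested on simulated counts.

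Alternatives were RLE scaling, no filter, a stricter filter (mean CPM at least 5), the Wald test of DESeq2 1.42.0, limma-trend (limma 3.58.1) on the deposited signal plus 1, an additive model of time and treatment, a covariate (the mitochondrial percent, or the mean log-CPM of astrocyte or choroid plexus markers), a GC and length correction of log-CPM (prior count 2, splines with 5 degrees of freedom, GENCODE vM21), leaving out libraries with Ttr under 100 CPM, and leaving out each mouse. Positions are from GENCODE vM21 (GRCm38). Named genes were all called genes, up to 10 per direction without overlap at both times with the smallest p, 12 fixed genes and up to 4 per functional list with the smallest p. The positive members of the sterol transport list were given as well, whatever their p. The members and lists were chosen with earlier results of these data known, and lists are described without a test. Some genes that this rule names are not reported here.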

Additional observations from a re-analysis of the deposited data

Results flagged for a closer look

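In 356 groups of 4 mice (85 named genes and 4 library measures), a single mouse stood far from the other 3 in 23, by a test of the gap to the nearest mouse against the range of the group, which chance alone meets in about 1 group in 20. The values are CPM unless stated. In the vehicle 6 h group mouse 11 was lowest for Usp39 (26.2), Nrp1 (106), Prkci (52.0), Gria1 (1054) and Kpna1 (145). Mouse 9 of the beta-sitosterol 1 h group was lowest for Plxnb1 (131) and Ppp1r12a (71.2). For Adgrg1 (75.4) and Cd44 (3.89), mouse 5 was lowest among the vehicle 1 h mice. In the beta-sitosterol 1 h group mouse 6 was lowest for Slc8b1 (5.57) and Tlr3 (14.4). Mouse 12 of the vehicle 6 h group was lowest for Mvd (16) and Abca7 (24.2). For Gabra2 (277) and Homer1 (116), mouse 9 was highest among the beta-sitosterol 1 h mice. In the beta-sitosterol 6 h group mouse 20 was lowest for Caskin2 (23.2). Mouse 19 of the beta-sitosterol 6 h group was lowest for Srebf1 (49.5). For Cx3cr1 (66.1), mouse 4 was highest among the vehicle 1 h mice. In the beta-sitosterol 6 h group mouse 17 was highest for Nr1h2 (39.4). Mouse 20 of the beta-sitosterol 6 h group was highest for Ppp1r12a (79.6). For Ppp1cb (342), mouse 2 was lowest among the vehicle 1 h mice. In the beta-sitosterol 6 h group, mouse 20 had the highest Ttr, at 3801 CPM, and mouse 19 the highest slope of log-CPM on log2 transcript length, at 0.0339. No named gene passed the test of a difference between the effects at the 2 times.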

How the results depend on the processing

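The count of genes called over both times, 13 as reported, came to 117 under RLE, 96 with no filter on low counts, 497 with the filter at a mean of 5 CPM, 1294 with DESeq2 (12 of the 13 shared), 103 with limma on the deposited signal, 347 with the additive model and 456 with the choroid plexus score as covariate. It was 0 with the mitochondrial percent, with the astrocyte score, after the GC and length correction and once the 4 libraries low in Ttr were left out, and from 0 to 1206 with each mouse left out. All 13 were among the calls under the RLE, filter, limma, additive and choroid plexus settings. The 620 genes of one sign were 249 with the mitochondrial percent and 160 with the astrocyte score, and 339 to 985 with each mouse left out. The 186 genes without overlap were 952 without the libraries low in Ttr, where fewer mice must lie apart, and 194 to 482 with each mouse left out. The counts of genes called at both times separately, and for the difference between times, were 0 in all alternatives that gave them. The causes of these shifts were not tested. No called gene changed sign. No paired analysis was possible because the mouse numbers are not shared between groups. The number of genes without overlap was not defined for DESeq2, the additive model and the covariate fits, and the additive model gave no effect per time. Depth limits mainly genes with few reads, and the filter kept some of these, such as mt-Co2 and mt-Co3.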
